A study of Homo sapiens with 2 samples.

Results

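The 10 genes described here are regulators and markers of the epithelial-mesenchymal transition, listed by name and not by any measured value. CDH1 and EPCAM are the epithelial genes. The 8 mesenchymal genes comprise 5 transcription factors (SNAI1, SNAI2, TWIST1, ZEB1 and ZEB2) and 3 markers (CDH2, VIM and FN1). All 10 were matched to RefSeq genes on GRCh38, and 27 of the 54389 Flag-ETV4 peaks lay within 20 kb of their spans, a span being the stretch between the outer ends of all transcripts of a gene. The peaks came from 1 ChIP-seq experiment with 1 anti-Flag immunoprecipitate and 1 input library. Both libraries were from A549, an established human lung adenocarcinoma line, in which ETV4 was knocked down by shRNA and Flag-tagged full-length ETV4 was brought back by plasmid transfection. No library of cells without Flag-ETV4 was analysed here, and the tagged protein was expressed from a plasmid and not from its own gene. The sample labels name a Sigma Flag antibody, whereas the methods of the study name one from CST. With a single immunoprecipitate there was no replicate, so values below carry counting error only and no test between genes was made.

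In an epithelial-mesenchymal transition, cells give up the junctions that tie an epithelium together and become motile. E-cadherin, encoded by CDH1, holds neighbouring epithelial cells together, and its loss is a hallmark of the transition. SNAI1, SNAI2, ZEB1 and ZEB2 are zinc finger proteins that repress CDH1 through E-box sequences in its promoter, and TWIST1 is a basic helix-loop-helix factor of the same programme. N-cadherin (CDH2), the intermediate filament protein vimentin (VIM) and the matrix glycoprotein fibronectin (FN1) are typical of mesenchymal cells. ETV4 belongs to the PEA3 group of ETS factors, which bind DNA around a GGAA core.

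Flag-ETV4 had a peak at the start of each of the 8 mesenchymal genes and at neither end of the 2 epithelial genes. An end peak was found for 60.0% of the 20037 protein-coding genes of RefSeq. It was counted when a peak interval came within 1 kb of the 5′ end, or of either end where the promoter table used here did not give the direction of the gene. For the 5 members with a listed direction, ZEB1, ZEB2, CDH2, VIM and FN1, the count was 5 of 5, against 61.3% of the 15843 protein-coding genes with a listed direction. The direction of the other 5 members was taken from general knowledge of these genes. A peak with a fold enrichment over 10 at the gene end was found for 6 of the 8 mesenchymal genes, the exceptions being SNAI2 and ZEB2, and for 43.5% of all protein-coding genes. Fold enrichment is the value at the summit, which for VIM, among these 6, was 2173 bp from the 5′ end. In the wider lists of epithelial and mesenchymal genes given further on, the separation of the 2 groups was not seen. Those lists were chosen with earlier results of these data known. The 8 and 2 genes are not replicates of a condition, and the difference between them has no test.

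**Figure D1:**
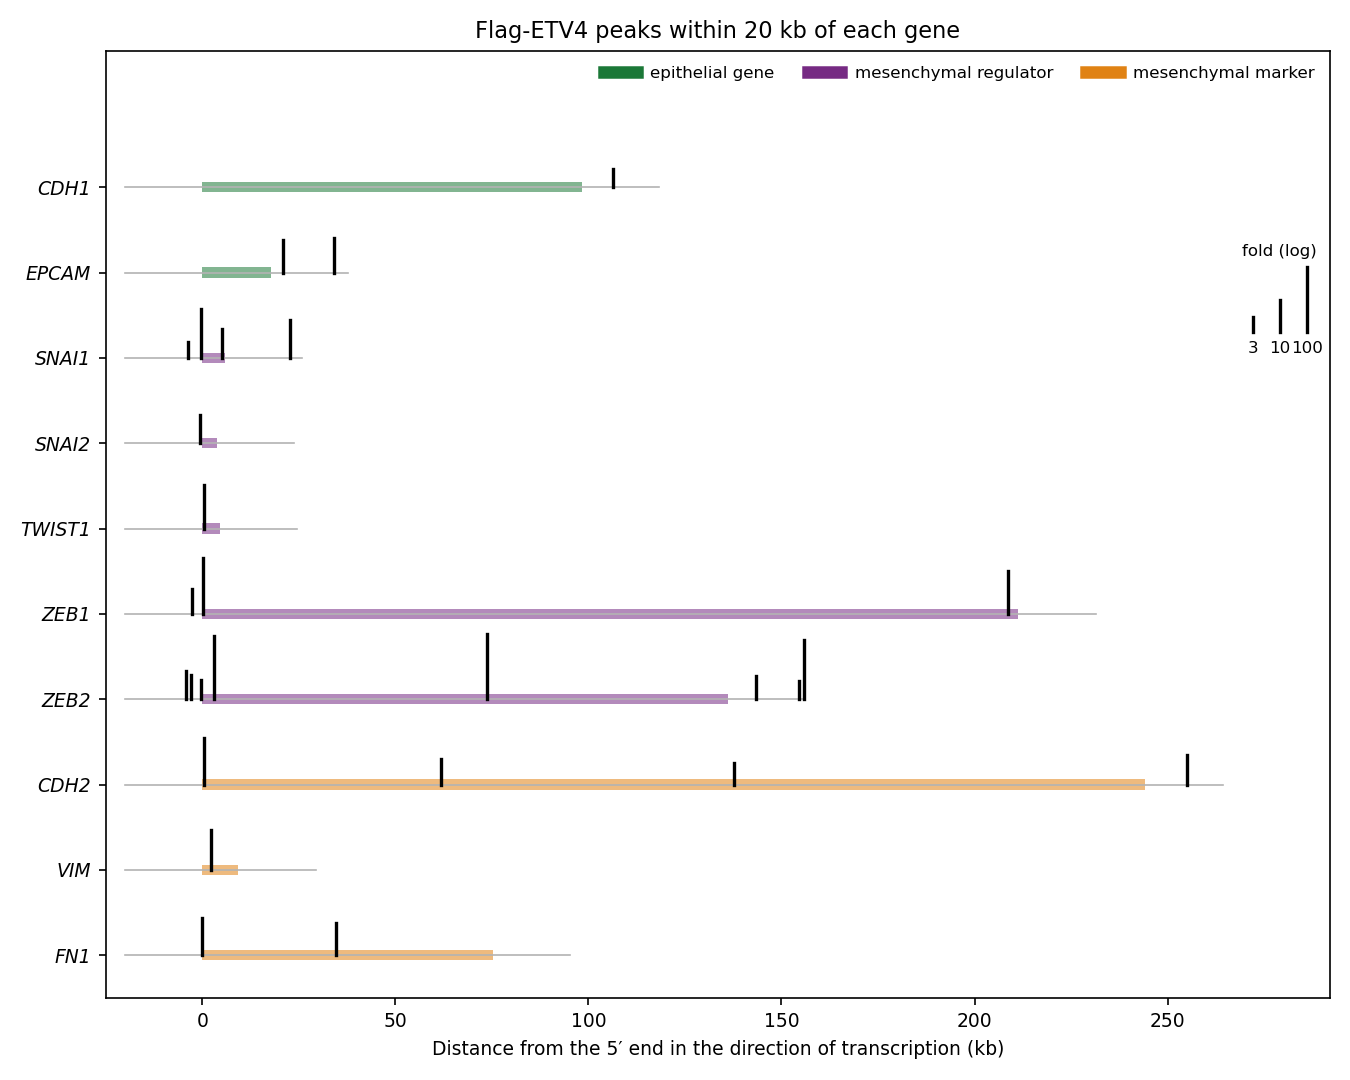
Positions of the Flag-ETV4 peaks around the 10 genes, with the distance of each summit from the 5′ end on the x axis (kb, in the direction of transcription). Coloured bars are gene spans, thin lines the 20 kb flanks, and black lines the peaks, whose height is the logarithm of the fold enrichment above 1. CDH1 and EPCAM have no peak on the bar, whereas each mesenchymal gene has a peak at or next to its start.

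At CDH1, on chromosome 16 from 68737292 to 68835537, no peak overlapped the 98.2 kb of the gene. The only window peak, from 68843685 to 68844092, had its summit 8254 bp beyond the 3′ end and 260 bp inside TANGO6, the next gene. It was weak, enriched 3.72-fold (4.54th percentile of all peaks), a −log10 q of 2.93 and 9 fragments piled up at the summit (exact Poisson 95% confidence interval 4.12 to 17.1) over a control level of 1.69. On the upstream side the nearest peak was 25.5 kb from the 5′ end of CDH1, outside the window, in the neighbouring P-cadherin gene CDH3, and had a fold enrichment of 6.57. CDH3 was named after its values were seen. The start of CDH1 thus lay in a stretch of 131.9 kb without a peak. Such stretches were not particular to the epithelial genes. Beyond their own end peaks, CDH2 and TWIST1 had their next upstream peak 466.6 and 302.1 kb from the 5′ end.

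EPCAM, which encodes an adhesion molecule of the epithelial cell surface, spans chromosome 2 from 47369311 to 47387020 and also contained no peak. A span without a peak was found for 28.0% of protein-coding genes. The first of its 2 window peaks, from 47389950 to 47390379, had its summit 3184 bp beyond the 3′ end of EPCAM, 9.84-fold enrichment, a −log10 q of 19.8 and 26 fragments piled up (17.0 to 38.1). The second was stronger and wider, enriched 11.2-fold with a −log10 q of 33.1, 44 fragments (32.0 to 59.1) and a width of 1046 bp, and was the only one of the 3 peaks in the epithelial windows with a fold enrichment over 10. The 5′ end of EPCAM was 20.6 kb from the nearest peak and lay in a stretch of 119.8 kb without one. Both epithelial genes therefore had their window peaks beyond the 3′ end, and of these 3 peaks only 1 had the epithelial gene as its nearest protein-coding gene. For the 24 peaks of the mesenchymal genes, the member was the nearest protein-coding gene in all 24. These counts depend on the length of a gene and on how near its neighbours lie. The same share over all protein-coding genes was not computed, so the counts are not read as a difference between the groups.

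Among the repressors of CDH1, ZEB1 had the strongest peak at its start. ZEB1 lies on chromosome 10 from 31318417 to 31529804. The peak from 31318043 to 31321209 covered the 5′ end, with a width of 3167 bp (99.6th percentile of all peaks), 53.2-fold enrichment, a −log10 q of 212 and its summit 118 bp into the gene. Its pileup was 142 fragments (120 to 167) over a control level of 1.69, and it also covered an end of the antisense lncRNA gene ZEB1-AS1, 1912 bp from the summit. A small peak upstream, from 31315550 to 31315798, was enriched 5.95-fold. Another peak, from 31526768 to 31527244, lay inside the gene 2770 bp before its 3′ end, with a fold enrichment of 21.3 and 49 fragments (36.3 to 64.8). No peak was called over the more than 200 kb of ZEB1 between the peak covering its 5′ end and the peak before its 3′ end.

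ZEB2, the paralogue of ZEB1, had a different layout. It lies on chromosome 2 from 144384081 to 144520119, on the minus strand, and its window held 8 peaks, the most of the 10 genes. The peak next to its 5′ end, from 144520120 to 144520384, was only 265 bp wide, with 3.75-fold enrichment, a −log10 q of 3.87 and 13 fragments (6.92 to 22.2). The strong peaks were elsewhere. The peak from 144515808 to 144517998, with a summit 3010 bp into the gene, was enriched 89.2-fold with a −log10 q of 618 and 379 fragments (342 to 419). Its summit was nearer to an end of the lncRNA gene ZEB2-AS1, at 2505 bp, than to the 5′ end of ZEB2. The peak from 144445895 to 144446665, with a summit 73.8 kb inside the gene, had the highest fold enrichment of all 27 peaks, 101.1, which is at the 99.1th percentile of the whole list, with 367 fragments (330 to 407). The peak from 144364065 to 144364670 was 19.7 kb beyond the 3′ end, and was enriched 65.7-fold with 222 fragments (194 to 253). The first 2 of these strong peaks had overlapping confidence intervals, and both lay above the interval of the peak beyond the 3′ end. The other 4 peaks of the window had fold enrichments between 3.69 and 7.58.

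At SNAI1, on chromosome 20 from 49982980 to 49988886, the strongest of 4 peaks ended 65 bp before the 5′ end. This peak, from 49982111 to 49982915, was enriched 31.1-fold with a −log10 q of 96.8 and 75 fragments (59.0 to 94.0). A peak with a fold enrichment of 7.65 and 20 fragments (12.2 to 30.9) lay inside the gene, 740 bp before its 3′ end. Another with a fold enrichment of 14.9 was 16.9 kb beyond that end, and the weakest of all 27, with a fold enrichment of 2.97 and a −log10 q of 1.63, was 3613 bp upstream. SNAI2 and TWIST1 each had a single peak, at the 5′ end. For TWIST1 on chromosome 7, the peak from 19116243 to 19118096 covered the 5′ end at 19117636, with a summit 333 bp into the gene, 22.3-fold enrichment, a −log10 q of 66.1 and 59 fragments (44.9 to 76.1). The next peaks were 302.1 kb upstream and 330.5 kb downstream of that end. For SNAI2 on chromosome 8, the peak from 48921178 to 48922190 covered both the 5′ end of SNAI2, 517 bp from the summit, and the end of the lncRNA gene LOC107986942, 389 bp from the summit. Its fold enrichment was 7.50 and its −log10 q 25.7. The SNAI2 summit had 47 fragments (34.5 to 62.5), so its pileup was within the counting interval of TWIST1, while its control level of 5.40 was the highest of the 27 peaks against 1.69 at TWIST1. Fold enrichment is taken over this level.

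**Figure D2:**
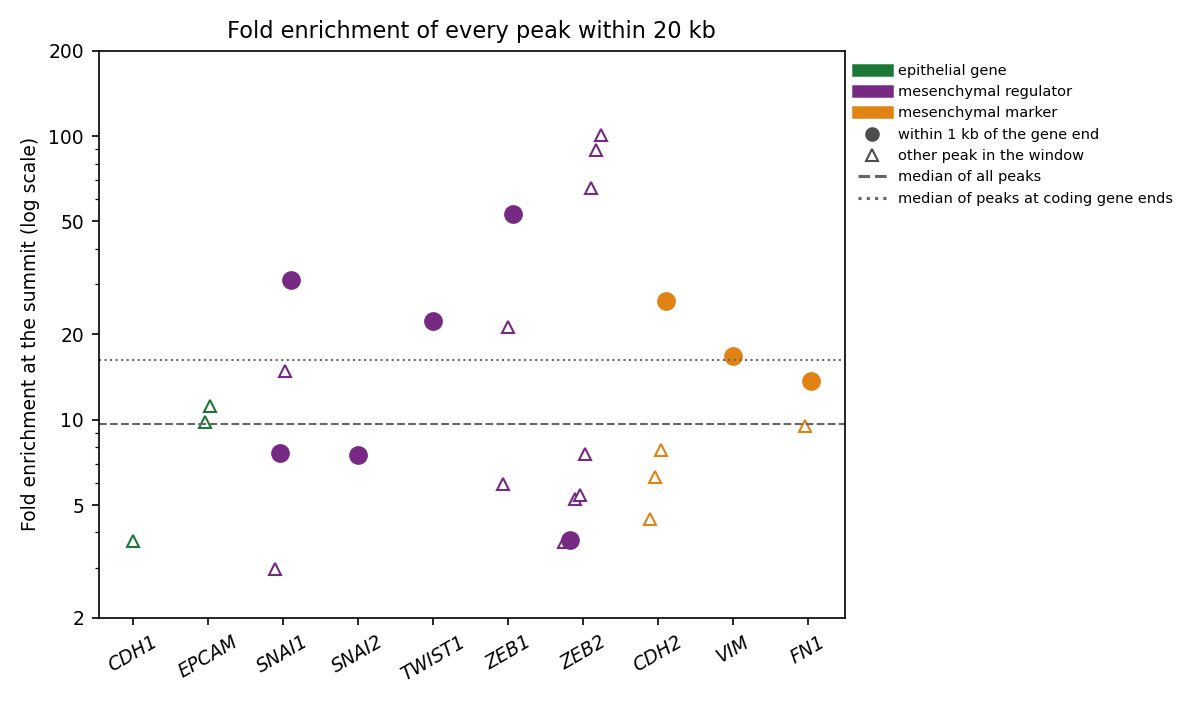
Fold enrichment (log scale) of each of the 27 peaks by gene, with filled circles for peaks within 1 kb of the gene end and open triangles for the others. The dashed line is the median of all peaks, 9.63, and the dotted line the median of peaks at protein-coding gene ends, 16.2. The highest points are 3 ZEB2 peaks away from the gene end, and the single CDH1 point is at 3.72.

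The mesenchymal markers had peaks of intermediate height at their starts. CDH2, on chromosome 18 from 27932879 to 28177130 on the minus strand, had the widest peak of the 27, from 28175160 to 28178625 (3466 bp, 99.7th percentile of all peaks). It covered the 5′ end, with a summit 357 bp into the gene, 26.1-fold enrichment, a −log10 q of 90.6 and 78 fragments (61.7 to 97.3). The other 3 CDH2 peaks, of which 2 were inside the gene and 1 was 10.8 kb beyond its 3′ end, had fold enrichments of 4.46 to 7.81. VIM, on chromosome 10 from 17228241 to 17237593, had 1 peak, from 17228287 to 17230884. It began 46 bp inside the gene, but its summit was 2173 bp from the 5′ end and 429 bp from an end of VIM-AS1, an antisense lncRNA gene. Its fold enrichment was 16.7, its −log10 q 48.5 and its pileup 50 fragments (37.1 to 65.9). FN1, on chromosome 2 from 215360865 to 215436068 on the minus strand, had a peak from 215435641 to 215437137 whose summit was 43 bp inside the gene, with a fold enrichment of 13.7, a −log10 q of 38.9 and 45 fragments (32.8 to 60.2). It also covered an end of the divergent transcript gene FN1-DT. A second FN1 peak, 34.7 kb inside the gene, had a fold enrichment of 9.46 and 34 fragments (23.5 to 47.5).

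Ordered by the summit fold enrichment of the peak counted at the 5′ end, the mesenchymal genes ran from ZEB1 over SNAI1, CDH2, TWIST1, VIM, FN1 and SNAI2 to ZEB2. The VIM summit was 2173 bp from the 5′ end, so its place in this order does not describe the 5′ end itself. In fragments piled up, the interval of ZEB1 lay above those of the other 7 genes and that of ZEB2 below them. The 6 genes between, with 45 to 78 fragments, overlapped with their neighbours in the order. The 5′ end itself was inside the peak at SNAI2, TWIST1, ZEB1, CDH2 and FN1, and 1 to 65 bp outside it at SNAI1, ZEB2 and VIM. Including the one at the 3′ end of SNAI1, 9 peaks were at a gene end. Their fold enrichment had a median of 16.7 and their width one of 1497 bp, against 7.70 and 478 bp for the other 18. Over the whole list, peaks at protein-coding gene ends had medians of 16.2 and 1003 bp and other peaks 8.41 and 465 bp. The fold enrichment of the end peaks was thus close to that of gene ends in general. Of the 27 peaks, 12 had a fold enrichment over 10, against 48.5% of all peaks.

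RefSeq promoter windows of 300 bases, 250 before the start and 50 from it on, were used for the 5 members in the promoter table. They are shown because they are the stretches at which the peaks of ZEB1, ZEB2, CDH2 and FN1 lay and at which that of VIM only began. All are on GRCh38.p14 and written 5′ to 3′ along the gene, with the ETS core GGAA, or TTCC where it is on the other strand, in capitals. The first ZEB1 window, chr10:31318167-31318466 on the plus strand, is entirely inside the peak. The second, chr10:31318966-31319265, belongs to a later ZEB1 start inside the same peak. It was picked from the 7 ZEB1 windows of the table after its letters were seen, as the only one with the longer ETS motif CCGGAA and the one with the most E-boxes. The ZEB2 window, chr2:144520070-144520369 on the minus strand, contains the summit of the weak peak. The CDH2 window, chr18:28177081-28177380 on the minus strand, is wholly inside its peak. The FN1 window, chr2:215436019-215436318 on the minus strand, is inside its peak and contains the summit. The VIM window, chr10:17227991-17228290 on the plus strand, overlaps its peak by 4 bases.
ZEB1, first start: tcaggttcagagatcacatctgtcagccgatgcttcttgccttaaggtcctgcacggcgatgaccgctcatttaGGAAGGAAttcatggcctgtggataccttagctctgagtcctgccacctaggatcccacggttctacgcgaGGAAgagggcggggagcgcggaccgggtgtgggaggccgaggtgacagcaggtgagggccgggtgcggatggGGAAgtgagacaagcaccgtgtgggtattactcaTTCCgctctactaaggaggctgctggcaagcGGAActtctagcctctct
ZEB1, later start: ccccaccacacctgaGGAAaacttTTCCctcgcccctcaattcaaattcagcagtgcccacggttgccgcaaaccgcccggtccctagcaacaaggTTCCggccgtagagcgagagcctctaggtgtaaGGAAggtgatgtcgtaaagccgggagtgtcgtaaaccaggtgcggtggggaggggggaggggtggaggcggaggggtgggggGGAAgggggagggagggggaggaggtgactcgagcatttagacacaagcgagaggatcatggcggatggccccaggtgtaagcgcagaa
ZEB2: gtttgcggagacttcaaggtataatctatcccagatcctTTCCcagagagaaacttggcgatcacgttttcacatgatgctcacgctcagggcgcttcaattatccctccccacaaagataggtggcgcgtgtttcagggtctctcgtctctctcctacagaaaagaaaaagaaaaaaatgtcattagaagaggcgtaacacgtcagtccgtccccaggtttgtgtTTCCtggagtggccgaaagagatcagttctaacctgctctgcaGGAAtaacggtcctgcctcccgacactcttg
CDH2: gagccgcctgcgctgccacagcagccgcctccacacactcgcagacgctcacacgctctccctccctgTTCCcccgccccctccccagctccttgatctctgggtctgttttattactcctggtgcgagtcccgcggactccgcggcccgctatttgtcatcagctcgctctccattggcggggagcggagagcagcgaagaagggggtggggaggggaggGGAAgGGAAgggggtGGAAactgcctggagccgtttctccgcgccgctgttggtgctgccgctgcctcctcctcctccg
FN1: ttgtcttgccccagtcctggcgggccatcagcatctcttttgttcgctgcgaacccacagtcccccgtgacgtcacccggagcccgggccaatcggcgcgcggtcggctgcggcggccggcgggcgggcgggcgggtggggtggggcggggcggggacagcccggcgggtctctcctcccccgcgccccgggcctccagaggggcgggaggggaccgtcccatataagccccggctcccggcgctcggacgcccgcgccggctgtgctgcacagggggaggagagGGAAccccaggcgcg
VIM: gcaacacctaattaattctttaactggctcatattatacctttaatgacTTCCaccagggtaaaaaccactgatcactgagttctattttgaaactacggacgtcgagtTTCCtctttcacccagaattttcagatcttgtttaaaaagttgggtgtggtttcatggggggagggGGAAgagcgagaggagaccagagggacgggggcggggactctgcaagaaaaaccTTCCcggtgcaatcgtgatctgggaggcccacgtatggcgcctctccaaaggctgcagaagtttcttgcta

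The core GGAA occurred 6 times in the first ZEB1 window, 5 times in the later one, 3 or 4 times in each of the other 5 ZEB1 windows, 3 times in ZEB2, 4 times in CDH2, once in FN1 and 4 times in VIM, both strands counted. It is a short motif, present in 95.5% of the 35116 promoters of the table with a median of 3 matches. FN1, with its summit in the window, had the fewest cores, and VIM, with hardly any overlap, had as many as CDH2. The longer ETS motif CCGGAA, which contains the core, was found in the later ZEB1 window only, on the minus strand at position 97 counted from the first printed base. CCGGAAGT, which contains both, was found in none of the 12 windows of the 5 genes. Over the whole table, CCGGAA was present in 17.2% of promoters, in 46.2% of the 5023 promoters that hold a peak summit and in 7.65% of those without a peak. For CCGGAAGT the shares were 4.14%, 15.7% and 1.03%. Among the 14767 promoters that overlap a peak, the shares were 30.5% for CCGGAA and 8.42% for CCGGAAGT. The printed windows of ZEB2, CDH2, FN1 and VIM all overlap a peak, but only those of ZEB2 and FN1 hold a summit. They had neither of the longer motifs, like most promoters that overlap a peak. The E-box CAGGTG, or CACCTG on the other strand, was found once in the first ZEB1 window and 3 times in the later one, and not in the other 5 ZEB1 windows or the ZEB2, CDH2, FN1 or VIM windows printed here. It was present in 20.6% of all promoters and in 17.5% of those with a summit. The promoters of CDH1, EPCAM, SNAI1, SNAI2 and TWIST1 were not analysed here, and a match is a description of the letters and not a binding site.

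All 10 genes had at least 1 peak within 20 kb, as did 86.1% of protein-coding genes. Because long genes have long windows, counts were divided by the length of the window. The 2 epithelial windows held 3 peaks in 196 kb, or 1.53 per 100 kb (exact Poisson 95% confidence interval 0.316 to 4.47). The 8 mesenchymal windows held 24 peaks in 1011 kb, or 2.37 per 100 kb (1.52 to 3.53), so the intervals overlapped. Regulators had 3.03 per 100 kb (1.76 to 4.85) and markers 1.56 (0.627 to 3.21), which is close to the epithelial value. The density was highest for SNAI1, 8.71 per 100 kb (87.0th percentile of protein-coding genes), followed by ZEB2 with 4.54, and was lowest for CDH1, 0.723 (17.1th percentile). Of 3510 protein-coding genes with a window of 100 to 200 kb, as for CDH1 and ZEB2, 24.7% had at most 1 peak and 8.66% had 8 or more, with a median of 3. EPCAM, with 3.47 per 100 kb, was between the quartiles of genes with windows of its length. The highest fold enrichment in the window had a median of 7.44 over the 2 epithelial and 24.2 over the 8 mesenchymal genes, against 21.2 over all protein-coding genes. In the wider lists given further on the order was reversed, with medians of 31.1 for epithelial and 16.6 for mesenchymal genes. By this measure CDH1 was at the 14.7th, SNAI2 at the 22.7th and EPCAM at the 30.6th percentile, whereas ZEB1 was at the 86.8th and ZEB2 at the 97.8th. SNAI2 ranked below EPCAM, so the groups overlapped.

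**Figure D3:**
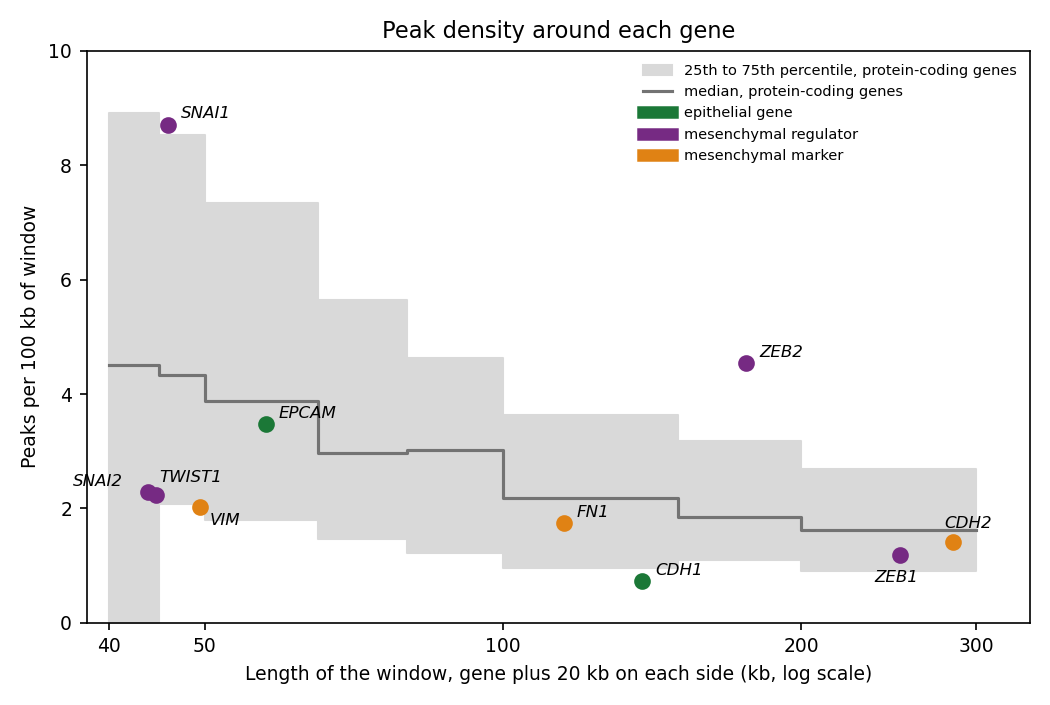
Peaks per 100 kb of window against the length of the window (log scale) for the 10 genes, with the median (line) and the 25th to 75th percentile (grey) of protein-coding genes of similar window length. SNAI1 at 8.71 and ZEB2 at 4.54 lie above the grey band and CDH1 at 0.723 below it. VIM, at 2.03, lies at its lower edge.

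Other genes of the 2 cell states, in lists chosen with earlier results of these data known, did not show the separation. The epithelial list had 25 further genes of tight junctions, desmosomes, simple-epithelium keratins, epithelial splicing and transcription factors, and serine protease control. The mesenchymal list had 25 further genes of transcription factors, matrix proteins, integrins and contractile proteins. A peak at the gene end was found for 13 of the 25 epithelial genes (52.0%, Wilson 95% confidence interval 33.5% to 70.0%) and for 11 of the 25 mesenchymal genes (44.0%, 26.7% to 62.9%), both below the 60.0% of all protein-coding genes, which lay inside either interval. KRT8 and KRT18 were both counted through 1 shared peak. The intervals treat the genes as independent draws, which genes picked by name are not. With a fold enrichment over 10 the counts were 10 and 9. Among genes with such a peak, the median fold enrichment was 19.7 in the epithelial list, 16.6 in the mesenchymal list and 17.5 over all protein-coding genes. Peaks within 20 kb were denser around the epithelial list, with a median of 4.60 per 100 kb against 2.05 around the mesenchymal list and 2.88 over all protein-coding genes. The median window was 59.0 kb in the epithelial and 76.2 kb in the mesenchymal list, and shorter windows had higher densities in general. With the members added, 13 of 27 epithelial and 19 of 33 mesenchymal genes had a peak at the gene end.

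The highest end peaks of the epithelial list were at LSR, which encodes a protein of tricellular junctions (fold enrichment 47.1, 289 fragments), ESRP2, an epithelial splicing regulator (42.5, 142 fragments), and OCLN, which encodes the tight junction protein occludin (36.6, 100 fragments). KRT8 and KRT18, neighbouring genes for the paired keratins of simple epithelia, shared 1 end peak with a fold enrichment of 25.7. Of the 12 epithelial genes without an end peak, the first 5 in alphabetical order were CLDN4, CRB3, ELF3, GRHL2 and JUP. CLDN4, GRHL2 and JUP nonetheless had peaks with fold enrichments of 94.1, 125 and 58.3 within 20 kb, whereas the highest at CRB3 was 4.18. ELF3, an epithelial ETS factor, was the only gene of the list with no peak in its window. GRHL2, which encodes a transcription factor that maintains epithelial identity, had 7 peaks inside the gene. No peak inside the span was found for 10 of the 25 epithelial genes and for 10 of the 25 mesenchymal genes, against 28.0% of protein-coding genes. Of the 10 epithelial genes, CRB3 and ELF3 had, like CDH1, no peak with a fold enrichment over 10 in the window either, whereas the other 8 had one. JUP had 4 peaks inside the gene.

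In the mesenchymal list, high end peaks were at ACTA2, the smooth muscle actin gene (fold enrichment 39.7, 105 fragments), and ITGA5, the fibronectin receptor subunit alpha 5 (36.7, 110 fragments). Of the 14 genes without an end peak, the first 5 in alphabetical order were CDH11, COL1A2, COL3A1, DCN and FOXC2. A peak within 20 kb was found for 19 of the 25 genes (76.0%, Wilson 95% confidence interval 56.6% to 88.5%), with the 86.1% of all protein-coding genes inside the interval. The 6 genes without one were CDH11, COL1A2, GSC, MMP2, POSTN and THY1, of which the last 4 were named after their values were seen. TWIST2, the paralogue of TWIST1, had an end peak with a fold enrichment of 12.1 and 35 fragments, and TNC, a matrix glycoprotein gene, one of 15.8 and 35 fragments. TWIST2 and TNC were likewise named after their values were seen. DCN and LUM, which lie side by side and encode small proteoglycans, shared a single window peak with a fold enrichment of 96.9 away from both gene ends.

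**Figure D4:**
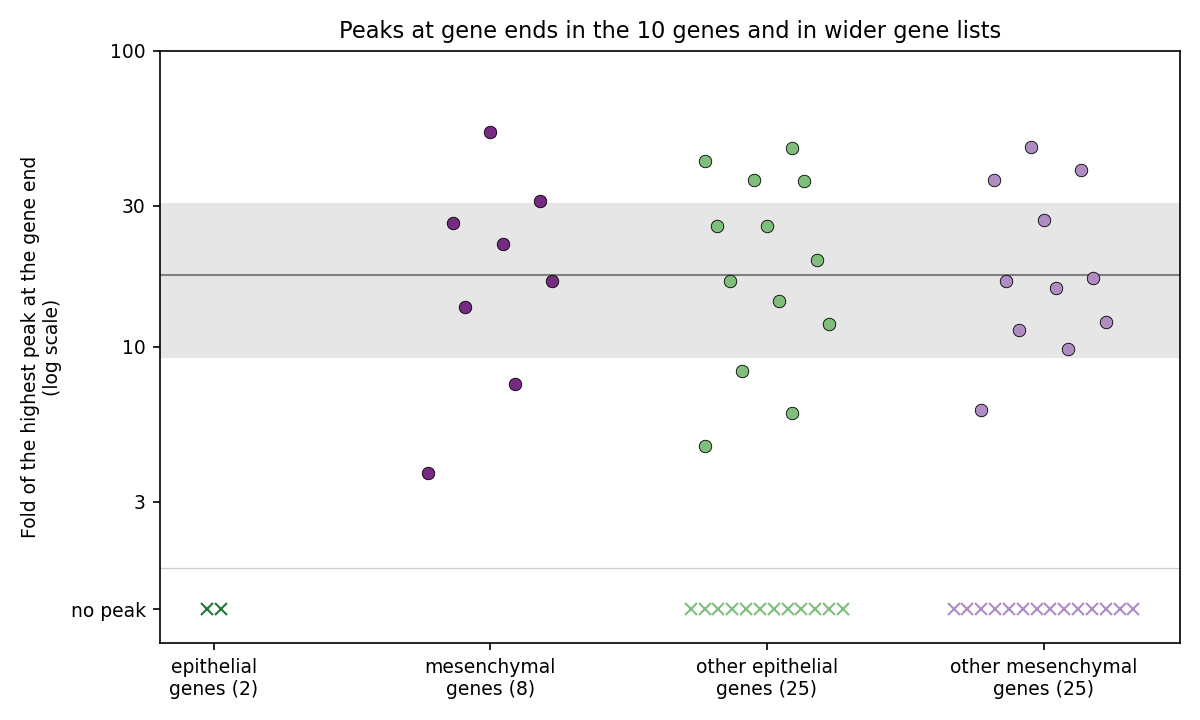
Fold enrichment (log scale) of the highest peak at the gene end for the 2 epithelial and 8 mesenchymal genes and for the 2 wider lists of 25 genes, 1 point per gene, with genes without an end peak as crosses at the bottom. The grey band is the 25th to 75th percentile and the line the median, 17.5, of protein-coding genes with an end peak. Both members of the epithelial group are crosses and no mesenchymal member is, while the wider lists hold 12 and 14 crosses.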

How the data were processed

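Anti-Flag ChIP-seq was analysed from the peak list of 1 immunoprecipitate. The authors deposited, for each peak, its bounds and summit, and there the ratio to the control (fold enrichment), −log10 of the p-value and of the q-value. A display score deposited by the authors was not used. The submitters' processing notes name Bowtie2 2.4.1, SAMtools, MACS2 2.2.7.1, deepTools 3.5.0 and hg38. Parameters and duplicate handling are not given in the sources used here. The lowest −log10 q was 1.30. Signal of the input itself was not used. The peak names run from 1 to 54389 without a gap.

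Genes were taken from RefSeq GRCh38.p14, and the direction of CDH1, EPCAM, SNAI1, SNAI2 and TWIST1 from general knowledge. Positions are 1-based. A peak belonged to a gene when its interval was within 20 kb of the span. Percentiles are shares of values at or below. The fragments at each summit were solved from fold and −log10 p as a Poisson upper tail, the ratio having a pseudocount of 1. They were whole to within 0.01 in 100% of peaks, with a median of 26 and a 5th percentile of 9, which limits the precision of weak peaks. Intervals cover counting error only, and those on shares of genes treat the genes as independent draws. The members and the lists were chosen with earlier results of these data known. All 10 members are named, and of each wider list the 3 genes with the highest end peak and the first 5 without one, besides the nearest genes of member peaks, except 2 genes that are not reported here; others named after their values were seen are GSC, MMP2, POSTN, THY1, TWIST2, TNC, LUM, CDH3, KRT8 and KRT18. Scripts were tested on simulated data. Alternatives covered fold, q, window, distance, summits, neighbouring genes and the choice of gene end. Software was scipy 1.17.1, numpy 2.4.6, matplotlib 3.10.9 and pandas 2.3.3 under Python 3.11.15.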

Additional observations from a re-analysis of the deposited data

How the results depend on the processing

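Fold enrichments over 5 and over 10, a −log10 q over 10 and summits in place of intervals could only remove end peaks. For CDH1 and EPCAM, without a listed direction or start, counting either end or any listed start repeated the main count. These last 2 settings were chosen after seeing the data. The absence of an end peak at both epithelial genes thus could not change under any of these settings. At 3 kb from the end it did not hold, as 1 of the 2, EPCAM, had a peak near its 3′ end. The mesenchymal count stayed between 6 and 8. With summits it was 7, without VIM, and at a fold over 5 it was 7, without ZEB2. A fold over 10 lowered the peaks within the windows from 27 to 12 and the mesenchymal density to 1.09 per 100 kb, and a window of 50 kb raised the number to 43. The median of the highest fold per mesenchymal gene rose to 37.8 with that window. For the epithelial genes it fell to 4.92 with a window of 5 kb, and likewise to 4.92 when peaks had to have the member as nearest protein-coding gene. Measured in fragments at the summit, these medians were 26.5 for the epithelial and 67 for the mesenchymal genes. The counts in the wider lists ranged from 10 to 17 and from 9 to 13 and stayed within 1.5 times. No paired analysis was possible because there was 1 immunoprecipitate, and no library could be left out. At 9 fragments or fewer, as in the weakest peaks, a fold enrichment is imprecise, and a missing peak means only that none was called at this depth.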

Other observations

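Wider flanks added peaks unevenly. With 50 kb on each side, the window of SNAI1 went from 4 to 12 peaks with a highest fold enrichment of 57.4, and that of ZEB2 from 8 to 10 with a highest of 166.7. CDH1 went from 1 to 2 peaks with a highest of 6.57, and EPCAM stayed at 2, TWIST1 at 1 and ZEB1 at 3. The highest peak within 50 kb of CDH2 had a fold enrichment of 54.0, against 26.1 within 20 kb. Long stretches without a peak flanked 2 mesenchymal genes, upstream at CDH2 and on both sides of the 5′ end at TWIST1. No peak lay within 466.6 kb upstream of the 5′ end of CDH2 outside its own end peak, and besides its own end peak none lay within 302.1 kb upstream or 330.5 kb downstream of the 5′ end of TWIST1.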
